A study of Mus musculus with 2 samples.

Results

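Nuclear genes for the 5 complexes of oxidative phosphorylation were followed in RNA from sorted mouse haematopoietic progenitors. They were chosen by symbol (Nduf a, b, c, s or v, Sdha to Sdhd, Uqcr, Cox4 to Cox8 and Atp5, without Cox6a2) with the most abundant transcript of each symbol, by a rule written with earlier results of these data known. Cox6a2, which the rule leaves out, was far lower in the DKO library and is described with the isoforms. This gave 89 of the 22020 gene symbols in the table, namely 42 for complex I, 4 for complex II, 8 for complex III, 18 for complex IV and 17 for complex V. Of these, 85 reached a mean of at least 1 RPKM (reads scaled to transcript length and library size) over both libraries and are called measured below. Cox7b2 and Cox8b were listed at 0 in both libraries, Ndufa4l2 had 4 and 2 reads, and Cox8c had 9 and 0 reads, with p53 KO given before DKO.

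The inner mitochondrial membrane carries these complexes. Complex I takes electrons from NADH and complex II from succinate, ubiquinone carries them to complex III, cytochrome c carries them on to complex IV, and complex IV reduces oxygen to water. Complexes I, III and IV pump protons, and complex V, the ATP synthase, uses the proton gradient to make ATP. Complex II is also an enzyme of the citric acid cycle, pumps no protons and is encoded by nuclear genes alone, whereas the other complexes combine nuclear subunits with subunits made from mitochondrial DNA. Blood stem cells are known for relying on glycolysis at rest and for using more oxidative phosphorylation as they differentiate.

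The cells were LSK cells (lineage-negative, c-Kit and Sca-1 positive) from C57BL/6 mice aged 8 weeks, in 2 labelled genotypes that share a p53 knockout: p53 KO, titled WT-LSK by the submitters, and Utx/p53 DKO, labelled as lacking the histone demethylase gene Utx (Kdm6a) too. Each genotype was represented by 1 library, with 17088105 and 19926294 reads per the file's header, so no test between genotypes was possible and every difference describes these 2 libraries only. The sources used here do not give the alleles, any Cre driver or whether animals were pooled. The p53 KO value comes first in every pair below, a ratio is DKO over p53 KO, and intervals are exact 95% intervals from recovered reads that cover counting error only.

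The oxidative phosphorylation genes were mostly higher in the DKO library, unequally so between complexes. The median log2 difference of the 85 measured genes, on log2(RPKM + 1), was 0.66, while that of all 11356 measured genes was -0.24, a distance of 0.89. Of the 85 genes, 70 had the higher RPKM in the DKO library, against 34.8% of all measured genes. At least 2-fold higher were 18 of the 85 genes (6.6% of all measured genes), and 1, Ndufaf1, was at least 2-fold lower (13.5% of all). By complex the distance from the all-gene median was 0.87 for complex I, 0.32 for complex II, 0.88 for complex III, 1.2 for complex IV and 0.76 for complex V. The summed level of the measured genes was 6883 RPKM for p53 KO and 10590 RPKM for DKO, and with all 89 genes they made up 1.91% and 2.26% of the summed RPKM of all symbols. Complex IV went from 0.288% to 0.433% of that sum, complex I from 0.766% to 0.951% and complex III from 0.197% to 0.242%. The share of complex V was 0.534% and 0.538%, and that of complex II was 0.122% and 0.0975%, the only complex with a smaller share in the DKO library. Summed RPKM of all measured genes was itself 358504 and 467153, so a share can fall while a level rises. Complex II summed to 440 and 457 RPKM and complex V to 1927 and 2519 RPKM.

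**Figure D1:**
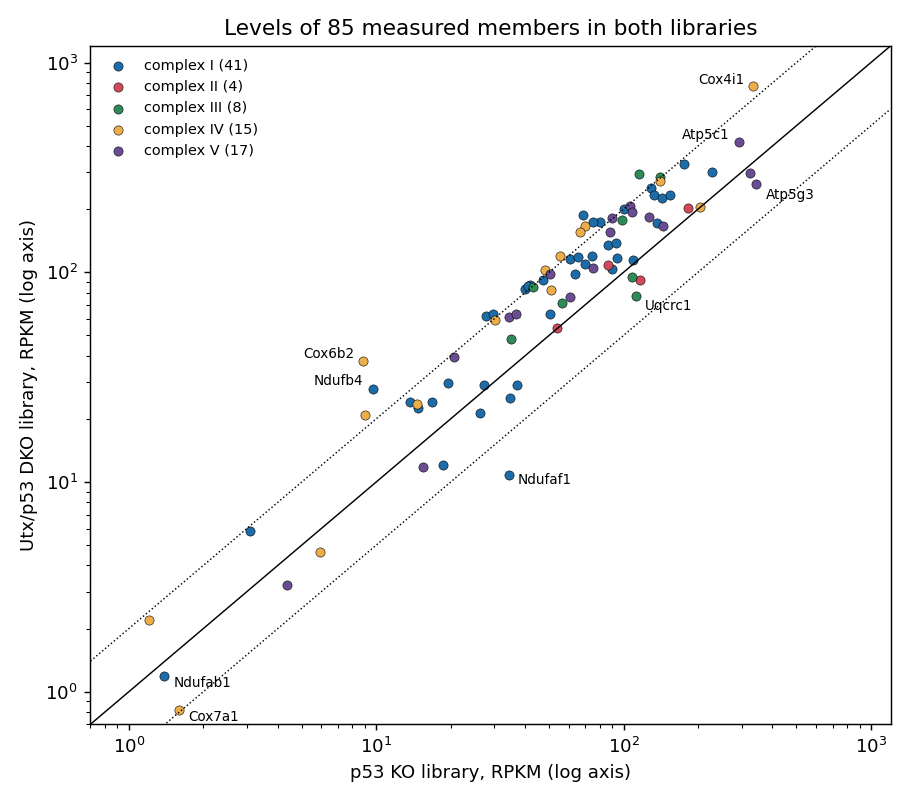
RPKM of the 85 measured genes in the p53 KO library (x, log axis) and the Utx/p53 DKO library (y, log axis), 1 point per gene, coloured by complex. The solid line marks equal RPKM and the dotted lines a 2-fold difference. Of the 85 points 70 lie above the solid line, with Cox4i1 the highest at 335 and 775 RPKM, and Ndufaf1 and the sparsely read Cox7a1 (1.6 and 0.823 RPKM) lie farthest below it.

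These counts depend on the scale. The authors' gfold constants add 0.602 to every log2 ratio, so that on their scale 55 of the 85 genes were at least 2-fold higher, beside 16.5% of all measured genes, and 82 were above 0. Scaling to equal summed RPKM left 3 of the 85 at least 2-fold higher, no larger a share than the 4.385% of all measured genes, and 57 above 0. The distances between complexes and between genes hardly move with such factors. In the authors' deposited table, which gives a GFOLD value meant as a cautious log2 fold change, 78 of the 85 genes had a value above 0 (54.5% of all measured genes), 6 were at 0 and 1, Ndufaf1, was below 0 (22.9% of all).

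Facts of the libraries bear on these values. Kdm6a was at 5.32 and 1.26 RPKM (479 and 132 reads), lower but still detected in the DKO library. Trp53 was at 19.4 and 12.9 RPKM (587 and 456 reads); these gene-level values do not by themselves show either loss, since reads over a deleted part were not separated. All 6 myeloid precursor markers, Elane, Mpo, Prtn3, Ctsg, Lyz2 and Ly6c2, were at least 2-fold higher in the DKO library, and their summed level was 5226 and 67796 RPKM. All 6 stem and progenitor markers were at least 2-fold lower (609 and 89.7 RPKM summed), as were 4 of 6 erythroid markers (714 and 89.2) and 6 of 6 B and lymphoid markers (381 and 23.5). Of the sort markers, Kit was at 64.2 and 16 RPKM and Ly6a, which encodes Sca-1, at 255 and 281. Of the lineage antigens, 7 of 9 were in the table (106 and 67.4 RPKM summed) and 4 were at least 2-fold lower. Most of both sums was Ptprc (61.5 and 53.8 RPKM), and Cd3e was the only higher one (5.42 and 7.48 RPKM). Only Epor, among all these markers, was at 0, in the DKO library. In such bulk RNA, a different mix of cells and a different RNA content per cell cannot be told apart, and the part of either in the values below was not tested.

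Complex I, the NADH dehydrogenase, differed by the role of its subunits. Its 7 nuclear core subunits, which hold the flavin and the iron-sulphur clusters or line the quinone site, had a median log2 difference of 0.07, whereas the 30 measured accessory subunits, which surround and stabilise the core, had a median of 0.83. Of the accessory subunits, 29 were higher in the DKO library and 9 at least 2-fold higher. Of the core subunits, 4 were higher, 3 were lower and none passed the 2-fold rule.

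Ndufv1, which binds NADH and the flavin, was at 89.9 and 103 RPKM (ratio 1.15, interval 1.09 to 1.21). Its partner Ndufv2 was at 109 and 115 RPKM, an interval of 0.998 to 1.1 that includes equality. Ndufs1, the largest core subunit and carrier of several iron-sulphur clusters, was at 37.1 and 29.2 RPKM (ratio 0.786, interval 0.733 to 0.843). Ndufs3, another core subunit, was at 26.4 and 21.2 RPKM (ratio 0.805, interval 0.7 to 0.925). Ndufs7 and Ndufs8, a pair which carries the last iron-sulphur clusters before the quinone, lay on the other side: the former was at 155 and 233 RPKM (ratio 1.51, interval 1.43 to 1.59) and the latter at 136 and 172. Subunits that share 1 enzyme core thus had ratios as far apart as 0.786 for Ndufs1 and 1.51 for Ndufs7. In the authors' deposited table the log2 fold changes were 0.25 for Ndufs1 and 1.19 for Ndufs7.

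Among the accessory subunits, the Ndufb genes, which belong to the membrane arm, had a median log2 difference of 0.92, and all 10 were higher in the DKO library. Ndufb3 was at 68.6 and 188 RPKM (624 and 1989 reads; ratio 2.73, interval 2.5 to 3), the largest log2 difference of complex I at 1.44. Ndufb4 was at 9.67 and 27.9 RPKM (75 and 252 reads; ratio 2.88, interval 2.22 to 3.78). Ndufb7 followed at 75.3 and 174 RPKM and Ndufb5 at 80.1 and 174. The others ran from Ndufb6 (92.8 and 137) to Ndufb11 (47.1 and 91.7), with Ndufb9 the most abundant at 175 and 328 RPKM, and Ndufb2 the least abundant at 3.09 and 5.85 RPKM.

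The Ndufa genes had a median of 0.63 over 14 measured members. Ndufa1, an X-linked membrane subunit, was at 27.9 and 61.7 RPKM (ratio 2.21, interval 1.9 to 2.58). Ndufa13, also known as the cell-death gene Grim-19, was at 29.7 and 63.6 RPKM. Ndufa8 was at 101 and 201 RPKM, a log2 difference of 0.99 just under the 2-fold rule. Smaller ratios were found for Ndufa9 (93.7 and 117), Ndufa12 (50.3 and 63.4) and Ndufa4 (229 and 299.6), the last of which is now counted as a subunit of complex IV. Ndufab1, the mitochondrial acyl carrier protein, was listed at only 1.39 and 1.19 RPKM. The accessory Ndufs genes had nearly equal ratios, with Ndufs4 at 41.8 and 87, Ndufs5 at 39.9 and 83.5 and Ndufs6 at 40.9 and 85.7 RPKM, ratios of 2.08, 2.09 and 2.09. They differed from their core namesakes Ndufs1 and Ndufs3, whose ratios were 0.786 and 0.805. Ndufv3 was at 65.5 and 119 RPKM, and the 2 Ndufc genes, Ndufc1 (13.7 and 24.1) and Ndufc2 (70.1 and 110), had ratios of 1.76 and 1.56.

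The 4 assembly factors found by the symbol rule, which help to build complex I and are not part of it, had a median of -0.25. Ndufaf1 was at 34.3 and 10.9 RPKM (851 and 314 reads), 3.16-fold lower in the DKO library (interval 2.77 to 3.61). Ndufaf4 was at 18.5 and 12 RPKM (ratio 0.648, interval 0.593 to 0.708), Ndufaf2 at 27.3 and 29.1 and Ndufaf3 at 16.8 and 24 RPKM. Ndufaf1 thus parted from the enzyme it helps to assemble, with a log2 difference of -1.57 beside a complex I median of 0.64. It lies on chromosome 2, whose 846 measured genes had a median log2 difference of -0.63; its 10 measured neighbours on either side, looked up after its value was seen, had a median of -0.63, ran from -1.45 to -0.06, and 7 of these 20 were at least 2-fold lower. The part of this region in the value of Ndufaf1 was not tested. The 7 measured oxidative phosphorylation genes on chromosome 2 (Atp5c1, Atp5e, Atp5g3, Cox4i2, Ndufa8, Ndufaf1 and Ndufs3) had a median of 0.33, and the 78 others one of 0.68.

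**Figure D2:**
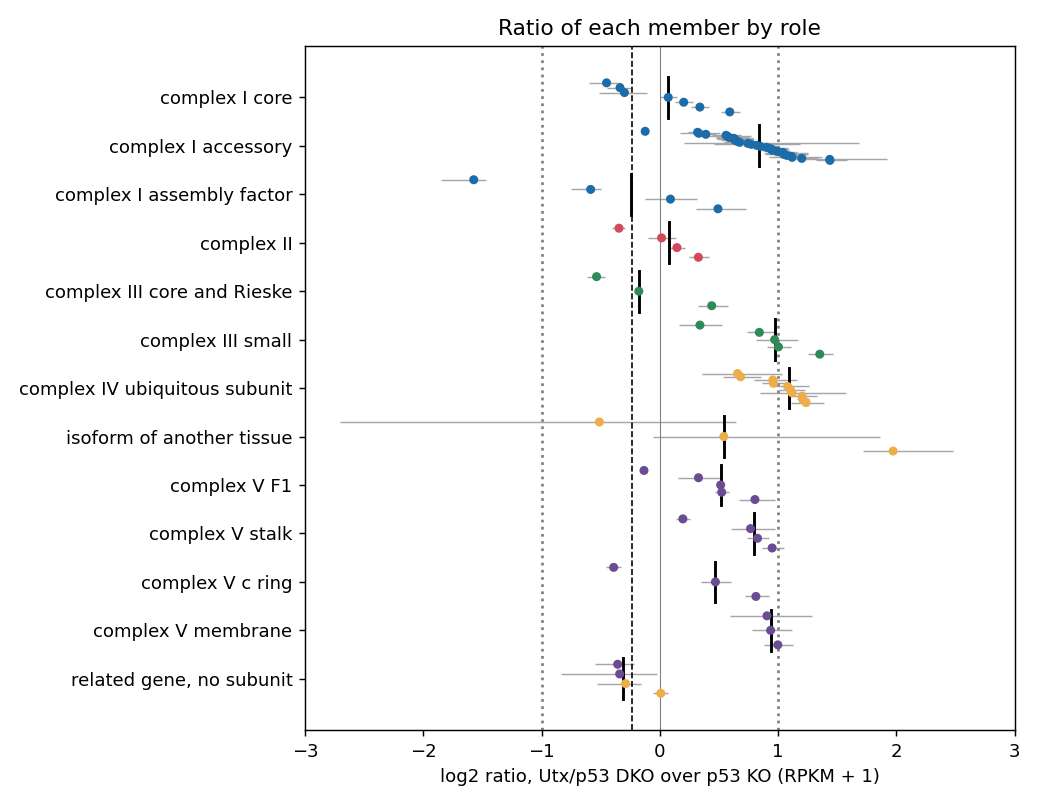
Log2 ratio of each measured gene (x, DKO over p53 KO, on RPKM + 1) by its role in the complexes (y). Points are genes, grey lines exact 95% counting intervals of the RPKM ratio where reads were recovered, thick bars the medians of a role, the dashed line the median of all genes at -0.24 and the dotted lines the 2-fold rule; complex I core genes and complex II lie near 0, complex I accessory, small complex III and complex IV genes near 1.

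Complex II, the succinate dehydrogenase, had the smallest difference of the 5 complexes, with a median log2 difference of 0.08 and none of its 4 genes past the 2-fold rule. The flavoprotein gene Sdha was at 117 and 91.6 RPKM (ratio 0.785, interval 0.756 to 0.815), the only lower one. The iron-sulphur subunit Sdhb was at 183 and 202 RPKM, and the membrane anchors Sdhc and Sdhd were at 54 and 54.5 and at 86.3 and 108 RPKM. Sdhc differed by less than counting error (interval 0.931 to 1.1). With scaling to equal totals the median of complex II was -0.29, so its sign depends on the scale; with the authors' constants it was 0.67.

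Complex III, the cytochrome bc1 complex, was divided like complex I. The 2 core proteins, large subunits on the matrix side that do not carry electrons, were both lower in the DKO library: Uqcrc1 at 113 and 77.4 RPKM (ratio 0.687, interval 0.652 to 0.724) and Uqcrc2 at 108 and 95.4. Uqcrc1 had the lowest log2 difference of all 74 measured structural genes, -0.54. In the authors' deposited table the direction turns, with log2 fold changes of 0.06 for Uqcrc1 and 0.42 for Uqcrc2. Uqcrfs1, the Rieske iron-sulphur protein, was at 35.2 and 48 RPKM, and the 5 small subunits were all higher, with a median of 0.97. Uqcrq was at 115 and 296 RPKM (983 and 2941 reads; ratio 2.57, interval 2.39 to 2.76), Uqcr10 at 141 and 283, Uqcrb at 43.2 and 85.5, Uqcrh at 98.7 and 178, and Uqcr11, the smallest difference of the small subunits, at 56.2 and 71.4. Cyc1, the haem-bearing cytochrome c1 that the symbol rule does not reach, was at 33.8 and 53.3 RPKM (ratio 1.58).

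Complex IV, cytochrome c oxidase, had the largest difference of the 5. All 10 of its ubiquitous nuclear subunits with a Cox symbol, which frame the mitochondrially encoded catalytic core, were higher in the DKO library, with a median log2 difference of 1.09, and 6 passed the 2-fold rule. Their RPKM ratios lay in a narrow range from 1.62 to 2.37, which does not include Ndufa4, listed above with complex I, at a ratio of 1.31. Cox4i1, the most abundant, was at 335 and 775 RPKM (3888 and 10489 reads; ratio 2.31, interval 2.23 to 2.4). Cox6c was at 69.8 and 166 RPKM, Cox7a2 at 66.7 and 155, Cox7b at 55.4 and 120, Cox6a1 at 48 and 103 and Cox5b at 9.05 and 20.8. Just under the rule were Cox5a (30.2 and 59.5) and Cox6b1 (140 and 273). Cox7c (14.6 and 23.6) and Cox8a (51 and 82.4) had the smallest ratios.

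The level of Cox4i1 can be set beside that of its direct neighbour on chromosome 8. The symbol rule also took Cox4nb, an older name ("Cox4 neighbour") of Emc8, a subunit of an endoplasmic reticulum membrane complex and not of complex IV. Cox4nb was at 5.91 and 4.65 RPKM (ratio 0.787, interval 0.692 to 0.895). The neighbours thus differed in opposite directions on the RPKM scale, while the log2 fold changes in the authors' deposited table were 0.26 for Cox4nb and 1.81 for Cox4i1. Cox7a2l, not counted here as a structural subunit either, was at 203 and 204 RPKM. Atp5s and Atp5sl, relatives of ATP synthase components in name and not structural subunits, were at 4.37 and 3.24 and at 15.4 and 11.8 RPKM. The 4 genes had a median log2 difference of -0.32, and 3 of them were lower in the DKO library.

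Isoforms known from other tissues gave few reads, except Cox6b2 and, judged by its RPKM in the p53 KO library, Cox6a2. Cox6b2, known as the testis form of subunit 6b, was at 8.89 and 37.8 RPKM (70 and 347 reads; ratio 4.25, interval 3.28 to 5.58), the largest log2 difference of all members at 1.97. Its share of the summed Cox6b1 and Cox6b2 level was 5.97% and 12.1%. The lung form Cox4i2 was at 1.21 and 2.21 RPKM (15 and 32 reads), and the heart and muscle form Cox7a1 at 1.6 and 0.823 RPKM (10 and 6 reads), with intervals of 0.962 to 3.64 and 0.154 to 1.56 that include equality. Cox8c had 0 reads in the DKO library, and the upper bound of its ratio was 0.434. Cox6a2, the heart and muscle form of subunit 6a that the rule leaves out, was at 13.3 and 0.381 RPKM. It was 34.98-fold lower in the DKO library and would have been a further gene past the 2-fold rule on the lower side.

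Complex V, the ATP synthase, had 0 of 17 genes past the 2-fold rule in either direction. Of all measured genes 6.6% passed it upward and 13.5% downward, shares that amount to few genes among 17. The count also depends on the scale, since the median log2 difference of complex V was 0.52 here and 1.12 with the authors' constants. In the DKO library 13 of the 17 were higher and 4, Atp5a1, Atp5g3, Atp5s and Atp5sl, were lower. In the F1 part, the alpha subunit Atp5a1 was at 326 and 297 RPKM, the beta subunit Atp5b at 127 and 183 (ratio 1.44, interval 1.38 to 1.5) and the gamma subunit Atp5c1 at 293 and 418. The small F1 subunits were Atp5d at 34.5 and 61 and Atp5e at 60.9 and 76.6 RPKM. Alpha and beta subunits are present in equal number in the enzyme; their RPKM were 326 to 127 for p53 KO and 297 to 183 for DKO. The peripheral stalk genes Atp5j (106 and 206), Atp5o (108 and 193) and Atp5h (36.7 and 63.1) had log2 differences of 0.95, 0.83 and 0.77, and Atp5f1 (145 and 166) one of 0.19. The 3 small membrane subunits were close to each other and to 2-fold: Atp5l at 90.2 and 181 RPKM (ratio 2.01, interval 1.85 to 2.18), Atp5j2 at 50.7 and 97.8, and Atp5k at 20.6 and 39.5. Atp5l passed 2-fold on RPKM itself and missed it with 1 added, at a log2 difference of 0.997.

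The 3 genes of subunit c, which forms the rotating ring, encode the same mature protein behind different import sequences, and they differed in opposite directions. Atp5g1 was at 88.1 and 155 RPKM (ratio 1.76, interval 1.65 to 1.89) and Atp5g2 at 75.3 and 105 (ratio 1.39, interval 1.27 to 1.52). Atp5g3, the most abundant of them, was at 344 and 262 RPKM (3995 and 3549 reads; ratio 0.762, interval 0.728 to 0.797). Their sum was nearly equal, 508 and 522 RPKM, while Atp5g3 made up 67.8% of it for p53 KO and 50.2% for DKO, and Atp5g1 went from 17.4% to 29.8%. These shares do not depend on the scaling of the libraries. Atp5g3 lies on chromosome 2, and its log2 difference of -0.39 stands above the median of -0.63 over that chromosome's measured genes; the part of the chromosome in its value was not tested. In the authors' deposited table the log2 fold changes of all 3 were above 0, with Atp5g3 at 0.21 and Atp5g1 at 1.42.

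**Figure D3:**
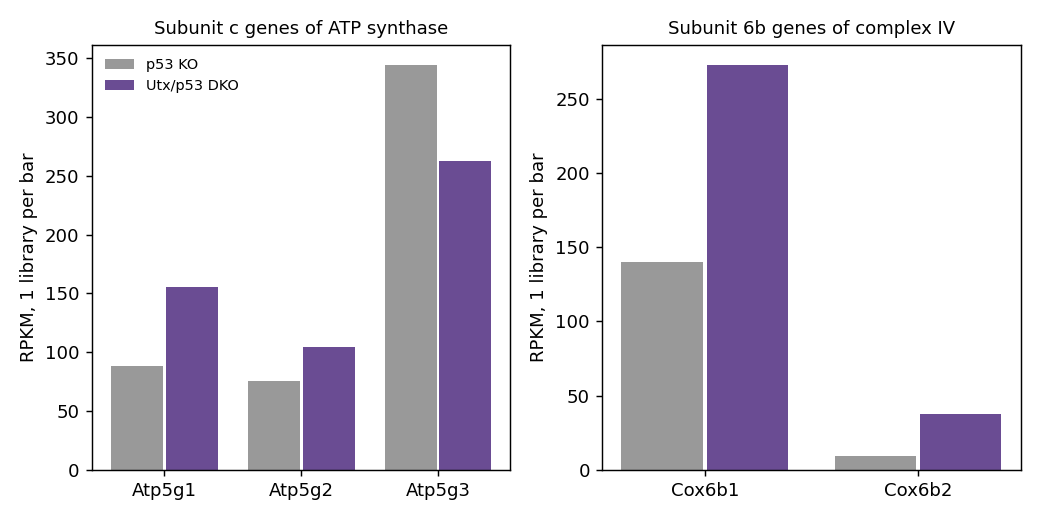
RPKM (y, from 0) of the 3 subunit c genes of ATP synthase and the 2 subunit 6b genes of complex IV, with 1 bar per gene and library and no replicates. Atp5g3 is lower in the DKO library (344 and 262 RPKM) while Atp5g1 and Atp5g2 are higher, and Cox6b2 stays far below Cox6b1 in both.

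Promoters were searched for 4 short motifs on both strands, because nuclear genes of mitochondrial proteins are known to use the factors NRF1, GABP (an ETS factor) and YY1: the NRF1 core GCGCATGCG, the ETS core CCGGAAG, the YY1 core AAGATGGCG, and CCAAT. Of the 85 measured genes, 72 had a RefSeq promoter (GRCm38.p6, 250 bases before to 50 after the start), with no entry matched for Cox4i1 among others. The NRF1 core stood in 12.5% of them, in 4.3% of the promoters of all measured genes (8802 had an entry) and in 2% of all 27025 genes of the promoter table. The YY1 core stood in 11.1%, 3.9% and 1.6%, the ETS core in 23.6%, 21.6% and 9.9%, and CCAAT in 45.8%, 43.8% and 41.1%. At least 1 of the NRF1, ETS and YY1 cores stood in 4 of the 15 promoters of genes at least 2-fold higher (26.7%) and in 5 of the 10 of genes lower in the DKO library (50%), beside 40.3% of all members' promoters and 27.8% of those of all measured genes. With 15 and 10 promoters, these shares are imprecise.

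The promoters below are examples: Ndufb3 and Cox6a1 from the higher side, the 3 subunit c genes with their unlike ratios, and Ndufaf1, the lowest. Each shows 170 bases that end just before the start of the RNA, 5′ to 3′ on the gene's strand, with matches to the 4 motifs in capitals. The NRF1 core reads GCGCATGCG on 1 strand and CGCATGCGC on the other, and where both overlap they form a single run of capitals.
Ndufb3, chr1:58586227-58586396, plus strand: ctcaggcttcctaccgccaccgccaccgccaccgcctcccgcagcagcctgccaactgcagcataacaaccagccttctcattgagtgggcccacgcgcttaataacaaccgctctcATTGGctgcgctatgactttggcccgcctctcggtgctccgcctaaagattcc
Cox6a1, chr5:115348959-115349128, minus strand: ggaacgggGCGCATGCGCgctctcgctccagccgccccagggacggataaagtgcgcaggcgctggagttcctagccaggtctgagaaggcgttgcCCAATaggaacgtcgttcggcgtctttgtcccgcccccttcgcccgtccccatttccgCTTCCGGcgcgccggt
Atp5g1, chr11:96075632-96075801, minus strand: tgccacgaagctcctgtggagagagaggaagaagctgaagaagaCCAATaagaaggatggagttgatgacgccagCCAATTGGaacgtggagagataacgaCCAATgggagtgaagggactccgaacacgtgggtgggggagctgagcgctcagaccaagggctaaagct
Atp5g2, chr15:102671048-102671217, minus strand: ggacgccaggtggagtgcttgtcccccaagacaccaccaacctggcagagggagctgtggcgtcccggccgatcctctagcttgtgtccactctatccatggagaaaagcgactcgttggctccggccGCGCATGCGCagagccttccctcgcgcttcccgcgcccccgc
Atp5g3, chr2:73911327-73911496, minus strand: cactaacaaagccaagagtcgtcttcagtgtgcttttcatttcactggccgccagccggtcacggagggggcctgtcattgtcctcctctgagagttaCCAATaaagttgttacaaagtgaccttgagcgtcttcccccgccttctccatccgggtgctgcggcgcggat
Ndufaf1, chr2:119662835-119663004, minus strand: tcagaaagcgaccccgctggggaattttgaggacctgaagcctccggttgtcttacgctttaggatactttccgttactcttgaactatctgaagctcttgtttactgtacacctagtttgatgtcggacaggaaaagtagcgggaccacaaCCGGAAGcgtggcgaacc

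Of these promoters, Cox6a1 held the NRF1 core, the ETS core and CCAAT, and Atp5g2 held the NRF1 core alone. Cox6a1 is not typical of the higher side. Among the 15 promoters of genes at least 2-fold higher, it was the only 1 with the NRF1 core (6.7%). The ETS core stood in 2 of those 15 (13.3%). The shares over all members' promoters were 12.5% and 23.6%. Atp5g1 held 4 overlapping or separate CCAAT matches, while Atp5g3 and Ndufb3 held 1 each and Ndufaf1 held the ETS core. None of the 4 motifs stood in all 3 subunit c windows. A match is a run of letters and no measure of binding.

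Transcript length differed along with the ratio, with a median length of 1472 bases for the complex I core genes and 549 for the accessory ones. Over the 81 measured members with a recovered length, the log2 difference and the length had a Spearman rho of -0.5, and over 10801 measured genes one of -0.18; the points are genes of the same 2 libraries, not replicates. The 39 members of 500 to under 1000 bases had a median log2 difference of 0.9, where all 928 genes of that class had 0.27. The 17 members under 500 bases had 0.77 (all 313 genes: -0.28) and the 19 of 1000 to under 2000 bases 0.2 (all 2660 genes: -0.11). The 6 members of at least 2000 bases, among them Ndufs1 (2665 bases) and Sdha (2859 bases), had the median of their class, -0.34 in both. Members exceeded their length class in the classes under 2000 bases, and Ndufa11, recovered at 2661 bases, was at 14.8 and 22.6 RPKM. The part of transcript length in the differences between core and accessory genes was not tested.

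**Figure D4:**
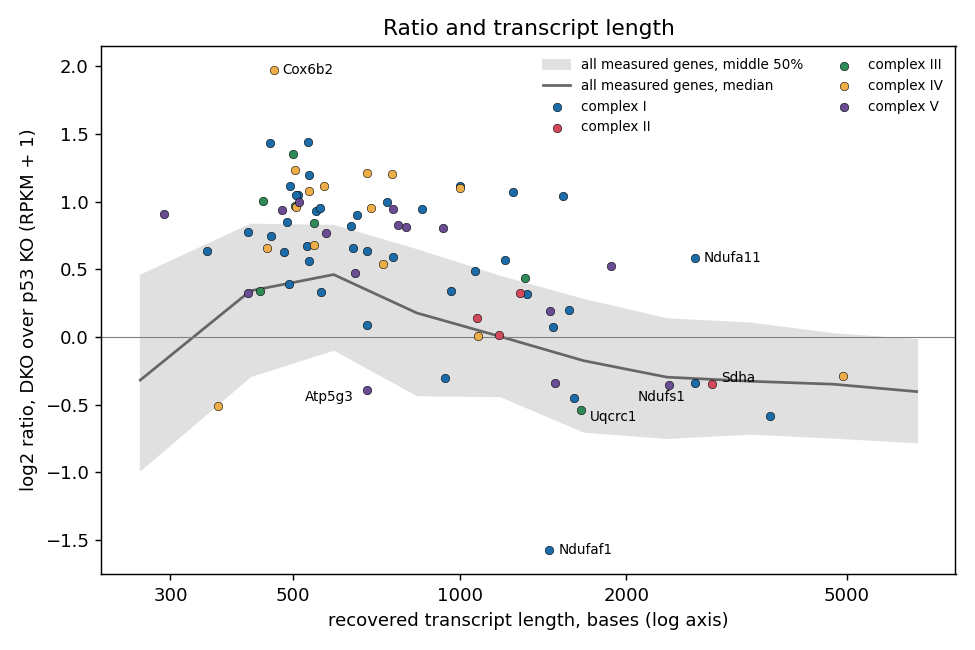
Log2 ratio (y, DKO over p53 KO, on RPKM + 1) of 81 measured genes against recovered transcript length in bases (x, log axis), coloured by complex; the grey line and band give the median and the middle 50% of all measured genes by length. Most short members lie above the line; of the 6 members of at least 2000 bases, Ndufs1 and Sdha lie close to it and Ndufa11 well above it.

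All genes with a mean of 100 to under 200 RPKM had a median log2 difference of 0.23 and the 25 members in that range one of 0.81. At 200 RPKM and more the medians were 0.38 for all 278 genes and 0.71 for 10 members, and at 10 to under 50 RPKM they were -0.2 and 0.62 (22 members). In all 5 ranges of level compared, the members' median was above that of all genes. The part of abundance in the result was not tested further.

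Other mitochondrial gene lists differed less. Their transcripts were longer, with median lengths from 1204 bases (protein import) to 3043 bases (biogenesis factors) against 679 for the members. Median p53 KO levels ran from 10.3 RPKM (assembly factors) to 133 RPKM (carriers, channels and inhibitor), against 63.6 for the members. The part of length and level in this contrast was not tested. None of the 13 subunits made from mitochondrial DNA had an entry under the names searched, and they were not analysed here. Electron carriers and dehydrogenases were listed together with ubiquinone genes (Coq and Pdss symbols), which made up most of the list. Its median log2 difference was -0.18 (18 measured, 0 at least 2-fold higher and 0 lower). Cytochrome c, Cycs, was the highest at 106 and 174 RPKM, followed by Cyc1, and the ubiquinone synthesis genes Coq4 (14.2 and 8.49) and Coq5 (19.5 and 11.8) were the lowest. Assembly factors beyond the symbol rule had a median of -0.11 (25 measured, 1 higher and 2 lower by the 2-fold rule). Cox17, the copper chaperone of complex IV, was at 14.4 and 48.5 RPKM (107 and 421 reads; ratio 3.37), and Surf1, also for complex IV, at 40.2 and 57.6. Ecsit, which serves both complex I assembly and Toll-like receptor signalling, was at 23.8 and 10.9 RPKM, and Uqcc, for complex III, at 18.8 and 8.85.

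Carriers, channels and the ATP synthase inhibitor had a median of 0.29 (9 measured, 0 past the rule in either direction). Usmg5, a small ATP synthase subunit outside the symbol rule, rested on 10 and 30 reads, and the inhibitor Atpif1 was at 176 and 296 RPKM. The channel gene Vdac1 was at 164 and 105 RPKM and the uncoupling protein gene Ucp2 at 73.4 and 62.1. Factors of mitochondrial biogenesis and DNA expression had a median of -0.26, close to that of all genes, and 1 of 16 was higher in the DKO library. The highest were Mterf (2.51 and 2.74) and Tfb2m (12 and 11.7), the lowest the mitochondrial DNA helicase gene Peo1 (12.4 and 4.04, at least 2-fold lower) and Gabpb1 (13.9 and 7.26), a subunit of GABP. Protein import genes had a median of 0.1 (24 measured, 0 higher and 1 lower by the rule), from the small translocase subunit Tomm7 (12.5 and 24.6) and the receptor Tomm20 (37.9 and 66.2) to Chchd4 (73.3 and 49.5) and Tomm34 (45.6 and 21).

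**Figure D5:**
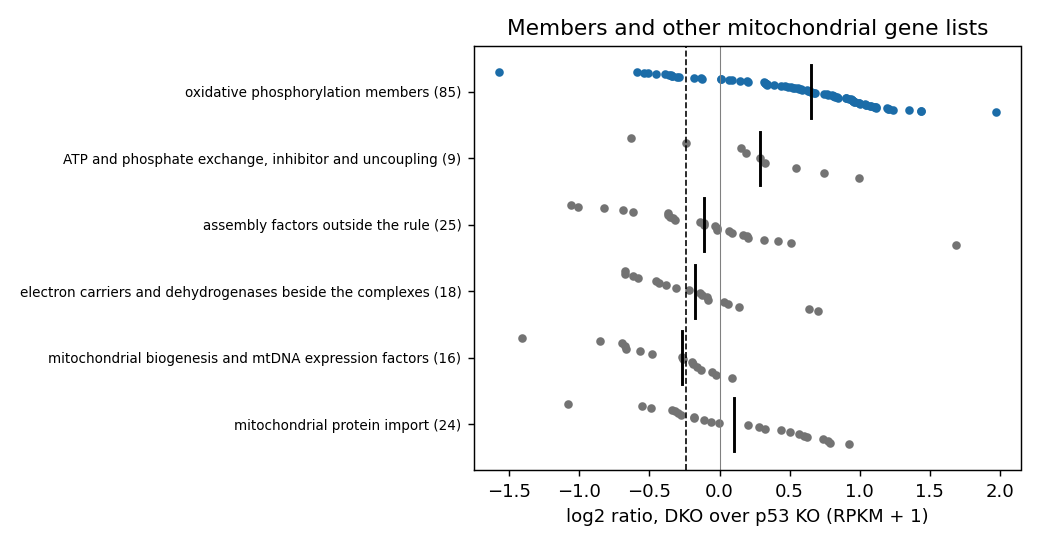
Log2 ratio (x, DKO over p53 KO, on RPKM + 1) of the oxidative phosphorylation genes and of 5 other mitochondrial lists (y, number measured in brackets), 1 point per gene, with the list median as a bar and the median of all genes as a dashed line. The oxidative phosphorylation genes have the rightmost median, 0.66, and the biogenesis factors, at -0.26, lie near the all-gene median.

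Counting limits few of these values. The 81 measured members with unique recovered reads ranged from 10 to 5702 p53 KO reads (median 790) and from 6 to 10489 DKO reads (median 1348). For Ndufab1, Uqcrc2, Atp5a1 and Atp5c1 the reads could not be recovered uniquely, so they carry no interval. For 10 members, Atp5c1, Atp5f1, Atp5k, Atp5l, Cox5b, Cox7c, Ndufa12, Ndufab1, Ndufs5 and Uqcrh, the RefSeq gene table names pseudogene copies, whose reads the counting may have split or dropped, and their levels are uncertain. Only copies named after their gene were searched for, so other members may be affected too.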

How the data were processed

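RNA-seq values of 2 LSK libraries, 1 per genotype, were taken from the 1 deposited table, which its header attributes to gfold 1.1.4; the submitters' processing notes also name bcl2fastq 1.8.4, TopHat2 2.1.0 and build mm9. Per the labels' protocols, cDNA was made with a SMART kit after oligo-dT selection and amplified, which can distort low values. The authors deposited RPKM of both libraries, a log2 fold change and GFOLD value on the log2 scale, and q-values (E-FDR) that were 1 in every row. RPKM columns were assigned by the library order in the header. The sources used here do not say how multi-mapping reads and strand were treated.

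RPKM was compared as log2(RPKM + 1), which understates changes of low genes, for symbols with a mean of at least 1 RPKM, keeping per symbol the transcript with the highest mean. The size rule was 2-fold. Differences are also given from the median of all measured genes. Whole reads and lengths were recovered by searching lengths up to 30000 bases for the one at which both RPKM are whole reads and the deposited fold change is met (1 solution for 95.7% of 24644 transcripts with reads, none for 185). Recovery was tested on simulated data. Exact Clopper-Pearson 95% intervals came from those reads; PCR reads without molecular identifiers are not independent molecules. No count test was run. The values of 1 member are not reported here on their own. Members, lists and motifs were chosen with earlier results of these data known. Members named were the core subunits, isoform sets, those past the size rule and the 3 highest and 3 lowest of each complex, with others added after their values were seen; in each other list the 2 highest and 2 lowest were named. The neighbours of Ndufaf1 and of Cox4i1 were also looked up after the values were seen. Chromosomes and promoters came from RefSeq (GRCm38.p6). Python 3.11.15, pandas 2.3.3 and SciPy 1.17.1 were used.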

Additional observations from a re-analysis of the deposited data

How the results depend on the processing

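The distances of the complexes from the all-gene median kept their sign under all 13 alternatives run on them (10 chosen beforehand, 3 added after seeing the data). The following moved by more than the median counting half-width of a member, 0.131 on the log2 scale. With a pseudocount of 5 the distance was 1.03 for complex IV and 0.761 for all members, and without the filter 0.933 and 0.749. It was 1.003 for complex V with structural subunits only (also 1.003 without Cox4nb) and 1.02 without chromosome 2 members, and 0.675 for complex III without members that have a named copy. The structural set of these alternatives had 78 measured members and left out the Ndufaf genes, Cox7a2l, Atp5s and Atp5sl. It kept Cox4nb, unless stated, and the isoforms of other tissues, which the 74 structural genes named with complex III do not include. The number of members at least 2-fold higher was 18 (6.6% of all genes passed), and 55 with the gfold constants (16.5%), 31 with upper-quartile scaling (8.36%), 3 with equal totals (4.385%) and 38 after centring on the all-gene median (9.63%). It was 47 at a 1.5-fold rule (13.04%) and 1 at a 3-fold rule (3.249%). The number of members at least 2-fold lower was 1 (13.5% of all genes passed), 2 without the filter (7.816%) and 2 at the 1.5-fold rule (29.61%). At the 3-fold rule it was 0 (4.341%), where Ndufaf1 misses with 1 added to each RPKM although its RPKM differ 3.16-fold. It was also 0 with structural subunits only (with or without Cox4nb) and without chromosome 2 members, which leave Ndufaf1 out. The all-gene median moved from -0.24 to 0.28 with the gfold constants and to -0.55 with equal totals. With 1 library per genotype no replicate could be left out and the spread between mice is unknown.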
